A study of Mus musculus with 2 samples.

Results

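The 10 genes described here are the NRF2 antioxidant response genes Nfe2l2, Keap1, Gclc, Gclm, Slc7a11, Txnrd1, Srxn1, Nqo1, Hmox1 and Osgin1. They were taken by symbol: every probe whose gene name on the array equals one of the 10 was a member probe, which gave 16 probes for 10 of the 37074 gene names on the array. The cells were mDE6, labeled as a mouse odontogenic epithelial cell line. The comparison asks which mRNAs differ in these cells when the kinase GSK-3 is inhibited. 1 culture was the control, labeled as treated with DMSO ("0/1%", a value whose meaning the labels do not settle, while the methods describe cells without the compound), and 1 was treated with CHIR99021 for 6 h, at 5 mM by the labels and at 5 μM by the study's description. The RNA of each was labeled with Cy3 and hybridized to 1 array of the same slide, so there was 1 array per condition, no replicate and no test.

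NRF2, the product of Nfe2l2, is a transcription factor that is held low in resting cells, because KEAP1 presents it to a cullin-3 ubiquitin ligase. Oxidants and electrophiles modify KEAP1, and NRF2 then enters the nucleus, pairs with a small MAF protein and binds antioxidant response elements at genes for glutathione and thioredoxin metabolism, quinone reduction and haem breakdown. Another route of NRF2 degradation runs through phosphorylation by GSK-3, the kinase that CHIR99021 inhibits, and recognition by β-TrCP. GSK-3 is also the kinase that marks β-catenin for destruction, which is why the inhibitor is used to switch on Wnt/β-catenin target genes.

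Hmox1 and Slc7a11 were higher after CHIR99021, and the other 8 genes stayed inside the limits used. Hmox1 was 2.68-fold and Slc7a11 1.90-fold the control level, Gclc, Srxn1 and Osgin1 lay between 1.44- and 1.47-fold, and Nfe2l2, Keap1, Gclm, Txnrd1 and Nqo1 lay between 0.923- and 1.16-fold. A gene was called higher when its ratio was at least 1.5 and its Z-score at least 2, and lower when the ratio was at most 0.66 and the Z-score at most -2, where the Z-score sets the log2 ratio of a probe against the 500 probes nearest to it in mean signal. By this rule 2 of the 10 members were higher, beside 2.67% of the 18837 gene names tested, and 0 were lower, beside 3.24%. On the ratio alone 2 were higher and 0 lower, beside 8.05% and 9.67% of all gene names. The median log2 ratio of the members was 0.37 and that of all gene names 0.02, and 9 of the 10 members had a ratio above 1, beside 53.4% of all gene names. The 10 genes were picked with earlier results of these arrays known, so these counts describe the list.

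**Figure D1:**
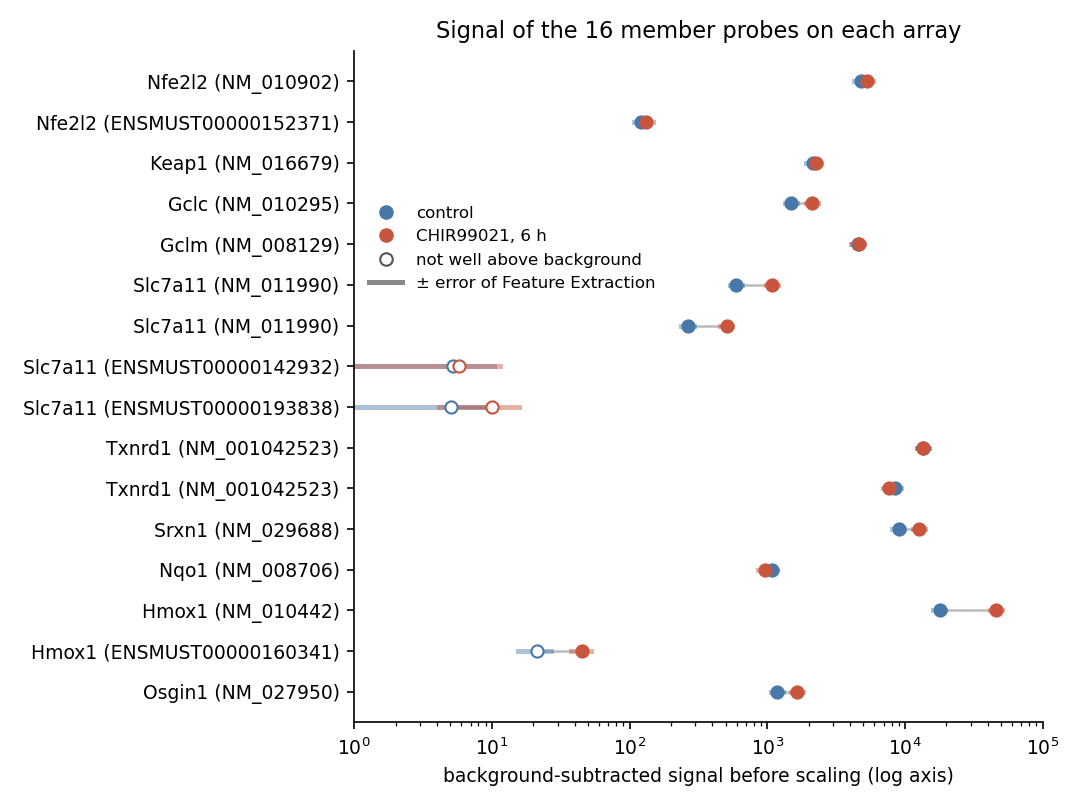
Signal of each of the 16 member probes on the control array (blue) and the CHIR99021 array (red), on a log axis and before scaling, with the transcript the array names for each probe. Open circles were not well above background and bars show the error that the scanner software assigned to 1 spot. The 2 symbols are farthest apart for Hmox1 (17880 and 46136) among the probes measured on both arrays.

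Each signal is the background-subtracted intensity of a spot, with the control array given first and the CHIR99021 array after it. Ratios were taken after each array was divided by its own 75th percentile, 486.7 in the control and 469.2 after CHIR99021. The scanner software gave each log2 ratio measured on both arrays a standard error of 0.204 to 0.223, from an error model whose header sets 10% per spot. This is an error of measurement of 1 spot and not of cultures. Over 278 probes that were printed at least 8 times, the ratio varied with a median SD of 0.03 on the log2 scale between spots.

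Hmox1 encodes haem oxygenase, which opens haem into biliverdin, iron and carbon monoxide. Its probe for NM_010442, on mm9 at chr8:77624406-77624466, read 17880 in the control and 46136 after CHIR99021. The treated array was the higher one, with a log2 ratio of 1.42 (SE 0.20) and the Z-score 5.85. Of the 16886 gene names measured on both arrays, 78 had a higher ratio. The other probe, for the transcript ENSMUST00000160341 at chr8:77620085-77620144, read 21.1 in the control, not well above background, and 44.9 after CHIR99021. Taking the treated signal as read, it was at least 1.97-fold higher after treatment. Its Z-score was 0.64 and the SE of its log2 ratio 0.45, so this dim probe did not meet the rule. The files name a transcript for each probe but no exon, intron or UTR. The first 30 bases of both Hmox1 probes are shown because this gene had the largest ratio of the 10 and its probes lie apart in the gene.
Hmox1 probe for NM_010442: gtgggtgggaaagaattattaatagttgta
Hmox1 probe for ENSMUST00000160341: acatgtattctgagttggtcccgttatatt

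Slc7a11 encodes the transport subunit of the cystine/glutamate antiporter, which brings in the cystine that glutathione is made from. It is a target of NRF2 and also of ATF4, the transcription factor of the amino acid response. Of its 4 probes, the 2 for NM_011990 were measured on both arrays. The first, at chr3:50176047-50176106, read 593.8 in the control and 1085 after CHIR99021, a ratio of 1.90 (Z-score 2.46). The other, at chr3:50169700-50169759, read 265.4 and 508.2, a ratio of 1.99 (Z-score 2.48). The 2 probes are separate sequences with 6287 bases between them, and both met the rule for a higher gene. The probes for ENSMUST00000142932 and ENSMUST00000193838 were not well above background on either array, with 5.22 and 5.75 for the one and 5.09 and 10 for the other, and give no ratio.
Slc7a11 probe at chr3:50176047: cctctagcgtattcaaattaatttttgagc
Slc7a11 probe at chr3:50169700: agtaatgtatcaggagctttatgtaaatgt

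The other 2 members of glutathione synthesis are the subunits of glutamate-cysteine ligase, which catalyzes the limiting step. The probe for the catalytic subunit Gclc (chr9:77641296-77641355) read 1493 and 2123, a log2 ratio of 0.56 (SE 0.20, Z-score 1.66). The probe for the modifier subunit Gclm (chr3:121967737-121967796) read 4527 and 4623, a log2 ratio of 0.08 (Z-score 0.04). Gclc missed both limits of the rule, and Gclm lay close to a ratio of 1. The difference between the subunits was not tested.

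Srxn1 and Txnrd1 act in the thioredoxin system. Srxn1 encodes sulfiredoxin, which restores peroxiredoxins that peroxide has over-oxidized. Its probe (chr2:151937009-151937068) read 8996 and 12714, a log2 ratio of 0.55 (SE 0.20, Z-score 1.66). Txnrd1 encodes the cytosolic thioredoxin reductase, and its 2 probes for NM_001042523 lay on either side of a ratio of 1. One (chr10:82360230-82360289) read 13491 and 13522, a ratio of 1.04, and the other (chr10:82338379-82338438) read 8447 and 7654, a ratio of 0.940. The sign of the Txnrd1 value also changed with the scaling or background correction, over ratios of 0.966 to 1.09, so it has no direction here.

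Nqo1 encodes the quinone reductase that is widely used as a readout of NRF2 activity. Its probe (chr8:109912440-109912499) read 1075 in the control and 956.4 after CHIR99021, a log2 ratio of -0.12 (SE 0.20, Z-score -0.44). It was the only member with a ratio under 1, and the ratio stayed under 1 in all 8 alternative scalings or background corrections, from 0.889 to 0.966. Osgin1 encodes a growth inhibitor induced by oxidative stress. Its probe (chr8:121970077-121970136) read 1186 and 1644, a log2 ratio of 0.52 (SE 0.20, Z-score 1.37).

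Neither gene of the regulator pair met the rule. Nfe2l2 had 2 probes: that for NM_010902 (chr2:75513771-75513830) read 4771 and 5343, a ratio of 1.16, and that for ENSMUST00000152371 read 120.2 and 132.6, a ratio of 1.14. The probe for Keap1 (chr9:21035292-21035732) read 2140 and 2248, a ratio of 1.09. This probe covers 441 bases of the genome with a sequence of 60, so it crosses a splice junction. The log2 ratio of Keap1 (0.12) was smaller than the error assigned to the spots, and the Nfe2l2 values (0.22 and 0.19) were close to theirs, 0.204 and 0.223. Array signals of mRNA do not measure the amount or the location of NRF2 protein.

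**Figure D2:**
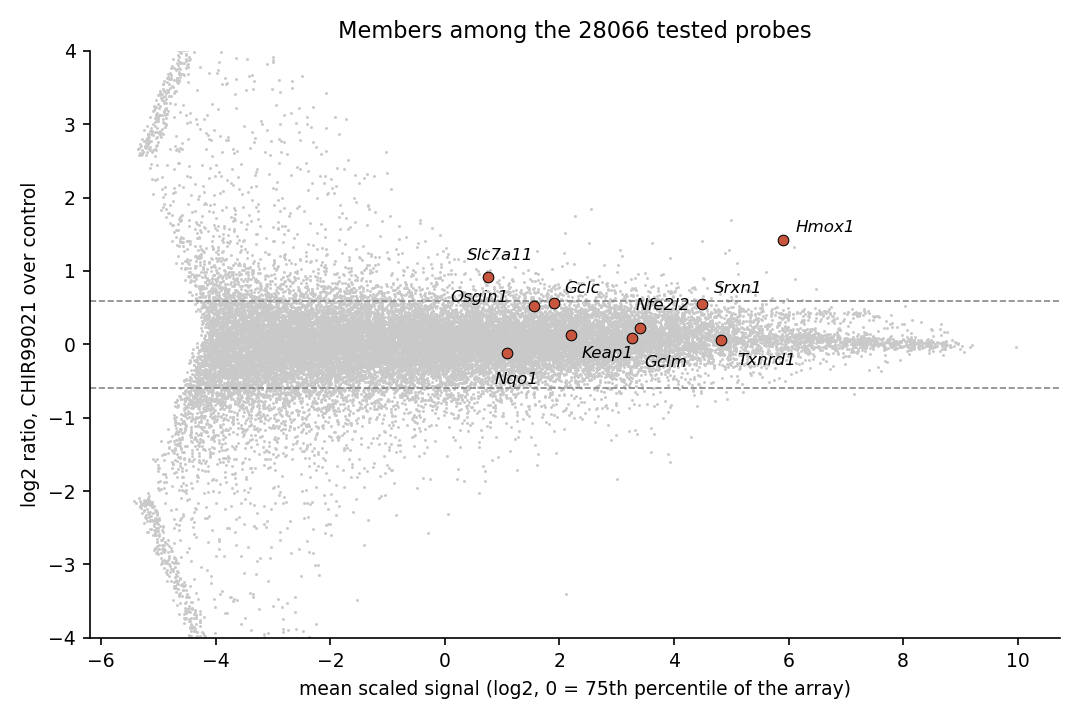
Log2 ratio of CHIR99021 over control against mean scaled signal for the 28066 tested probes (gray) and for the probe that stands for each of the 10 members (red). Dashed lines mark ratios of 1.5 and 0.66, and probes with a log2 ratio beyond 4 in either direction lie outside the axis. Hmox1 (1.42) and Slc7a11 (0.92) lie above the upper line, and Gclc, Srxn1 and Osgin1 just under it.

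In order of ratio the members ran Hmox1, Slc7a11, Gclc, Srxn1, Osgin1, Nfe2l2, Keap1, Gclm, Txnrd1 and Nqo1. Gclc, Srxn1 and Osgin1, at log2 ratios of 0.56, 0.55 and 0.52, were closer to each other than the spot error of 0.204. The same holds for each pair of neighbors from Nfe2l2 down to Nqo1. Of the 16886 gene names measured on both arrays, 243 had a higher ratio than Slc7a11, and 953, 984 and 1117 had a higher ratio than Gclc, Srxn1 and Osgin1. For Nqo1 the number was 11650. Among the 8 members that are target genes, without Nfe2l2 and Keap1, the median log2 ratio was 0.54.

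The position of a spot on the array bore on large ratios in these files. Of the 1277 tested probes with a change over 4-fold, 92.9% lay past row 192 of the 384 rows, where 51.6% of all tested probes lay, and 74.0% of the higher calls lay there too. The main Hmox1 probe (row 211) and both measured Slc7a11 probes (rows 251 and 209) are in these later rows, as are those of Gclc and Gclm and the Nfe2l2 probe for NM_010902. The dim Hmox1 probe lies in the earlier rows, at row 32, as do the Nfe2l2 probe for ENSMUST00000152371, at row 14, the probes of Srxn1, Osgin1, Keap1 and Nqo1 and both of Txnrd1. Pixel SD over mean was 0.0811 to 0.208 in the 14 tested member probes, under the limits for uneven spots of 0.260 and 0.261 set from the earlier rows. Within 3 rows and columns of the main Hmox1 probe, 0 spots were measured on 1 array alone with a change over 4-fold, and the highest number near a tested member probe was 6, around Gclm. The spots adjacent to a tested member probe, dim ones included, had a median log2 ratio of 0.06 to 0.47. The highest was around Gclm, and that around the main Hmox1 probe was 0.21. With the earlier rows alone, 7 members could be tested and 0 were called. Slc7a11, Gclc and Gclm have no tested probe there. The part of spot position in the 2 calls was not tested.

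Promoter sequence was available for 8 of the 10 members, as 10 windows of the 250 bases before a gene's start (RefSeq, GRCm38.p6). Hmox1 and Gclc were not among them. The core of the antioxidant response element was searched as TGACNNNGC on both strands. It was found in 10.2% of all 32851 windows and in 3 of the 10 member windows, those of Nfe2l2, Gclm and 1 of 3 of Txnrd1, none of which belongs to a gene that was called. Capitals mark the match in the 60 bases around it, read along the gene strand.
Nfe2l2, chr2:75704854-75704913, minus strand: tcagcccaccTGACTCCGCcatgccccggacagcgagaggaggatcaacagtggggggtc
Gclm, chr3:122245397-122245456, plus strand: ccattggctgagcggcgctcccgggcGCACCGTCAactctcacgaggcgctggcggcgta
Txnrd1, chr10:82859088-82859147, plus strand: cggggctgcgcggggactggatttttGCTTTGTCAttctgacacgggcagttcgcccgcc

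The matches lie 240, 134 and 92 bases before the start, on the gene strand in Nfe2l2 and on the opposite strand in Gclm and Txnrd1. The window of Slc7a11 held no TGACNNNGC but 2 matches to TGATGCAA, a composite element known to be bound by ATF4, at 66 bases on the gene strand and at 47 on the opposite strand. This motif was chosen after the values were seen. It was in 0.792% of all windows and in no other member window. The Slc7a11 stretch is shown because both of its matches fit in 60 bases, in capitals.
Slc7a11, chr3:50443637-50443696, minus strand: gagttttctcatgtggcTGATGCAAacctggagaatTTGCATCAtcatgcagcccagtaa
A match to letters is a description of the sequence, and these arrays hold no measurement of binding.

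A wider list of 108 genes around the pathway was set beside the members, of which all but Gsta1 were on the array and 102 were tested. In this list 2 genes were higher and 2 lower by the same rule, beside 2.67% and 3.24% of all gene names. The median log2 ratio was 0.01, and 51.0% of the genes had a ratio above 1, beside 53.4% of all gene names. Mafk, a small MAF partner of NRF2, read 2694 and 4398, a ratio of 1.69 (Z-score 2.26). Tfrc, the transferrin receptor that takes up iron, read 786.8 and 1569, a ratio of 2.07 (Z-score 3.0), and its other probe gave 2.06. Both genes were higher after treatment, and both spots lie in the later rows. Amer1, a scaffold that binds KEAP1 and also takes part in the β-catenin destruction complex, read 475.2 and 245.7, a ratio of 0.536. Nqo2, a quinone reductase related to Nqo1, read 1168 and 670.3, a ratio of 0.595. Its other probe was well above background in the control alone (27.4 beside 15.4) and gives no more than a bound near 1. Nqo2 no longer met the rule when its probes were averaged or when the one farthest from 0 stood for the gene. These were the 2 lower genes, at Z-scores of -2.11 and -2.17.

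**Figure D3:**
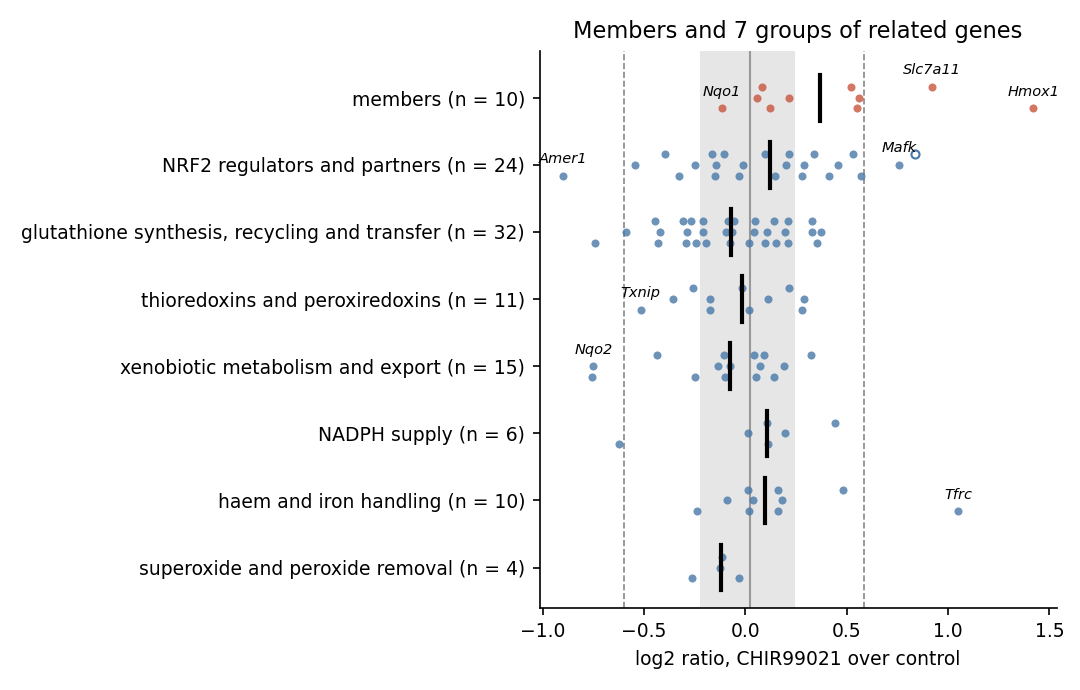
Log2 ratio of CHIR99021 over control for the members (red) and for 7 groups of related genes (blue, 1 point per tested gene), with the median of each group as a black bar. The gray band is the interquartile range of all 18837 gene names, dashed lines mark ratios of 1.5 and 0.66, and the open point is Palb2, measured on the CHIR99021 array alone. The members' median of 0.37 lies to the right of the band, and the medians of the 7 groups lie inside it.

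Among the 24 regulators and partners of NRF2, 1 was higher and 1 lower, and the median log2 ratio was 0.12. Other genes of this group are named for their role, after their values were seen, and none met the rule by the probe that stands for the gene. The small MAF gene Mafg had a ratio of 1.44, and its other probe, at 1.67 (Z-score 2.19), met the rule. Maff, of the same family, had 0.980. Bach1, a repressor that competes with NRF2 at Hmox1, had 1.33. Sqstm1, whose product p62 binds KEAP1 and is itself an NRF2 target, had 1.37 (Z-score 1.99), with 1.30 and 2.19 from its other probes. The 2.19 came from a dim probe in row 374 of the later rows, which read 41.5 and 87.6 (Z-score 1.03). Gsk3a and Gsk3b, the target kinases of CHIR99021, had 1.16 and 0.903, and the 3 probes of Gsk3b ran from 0.846 to 1.1, on either side of 1. Btrc, a β-TrCP gene, had 0.686, and its other probe 0.756. Fbxw11, the other β-TrCP gene, had 1.22, and its other bright probe 1.14. Its dim probes gave 1.03 (73.5 and 73.3) and 0.700 (86.4 and 58.2, Z-score -0.51), so its 4 probes share no direction. Cul3, the scaffold of the KEAP1 ligase, had 1.11.

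Of the 32 tested genes of glutathione synthesis, recycling and transfer, 0 were called, and their median log2 ratio was -0.07. The highest was Gsta2, a glutathione S-transferase (1.30), and the lowest Gstt3, of the same enzyme class (0.599, Z-score -1.60). Transferase genes have near-identical copies, so a probe may read more than 1 of them. Slc3a2, the heavy chain that carries SLC7A11 to the membrane, read 30468 and 32589, a ratio of 1.11, with 0.993 and 1.13 from its other probes, and was named for that role. Among 11 thioredoxins and peroxiredoxins 0 were called, between Prdx1, a peroxiredoxin, at 1.22 and Txnip, the inhibitor of thioredoxin, at 0.700. Txnip had a Z-score of -2.53 and missed the limit on the ratio, but it was called lower with the authors' table.

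Of 15 tested genes of xenobiotic metabolism and export, Nqo2 alone was called, and the group ran from the efflux transporter Abcc4 at 1.25 to its relative Abcc3 at 0.593 (Z-score -1.90). Among 6 genes of NADPH supply 0 were called, and 5 had a ratio above 1. Malic enzyme, Me1, was the highest at 1.36 and isocitrate dehydrogenase, Idh1, the lowest at 0.649 (Z-score -1.20). In the 10 genes of haem and iron handling, Tfrc alone was called and 8 had a ratio above 1. The lowest was Blvra (0.848), the biliverdin reductase that acts after haem oxygenase. Hmox2, the constitutive haem oxygenase, named beside Hmox1 for its role, had 1.12. Of the 4 genes of superoxide and peroxide removal 0 were called and 0 had a ratio above 1, from the mitochondrial dismutase Sod2 at 0.978 to the extracellular dismutase Sod3 at 0.833.

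Targets of β-catenin served as the check of the treatment. Lef1, a transcription factor of the pathway, read 239.0 and 690.5, a ratio of 3.0 (Z-score 4.09). Axin2, a feedback inhibitor of the pathway, was not well above background in the control and was at least 1.66-fold higher after CHIR99021. It read 7.23 and 37.9 and, with a Z-score of 0.92, did not meet the rule. The labeled cell type was checked against markers. Of 12 markers of odontogenic epithelium 7 were well above background on each array, but not the same 7. Trp63 and Perp were measured on both, and Krt8, Cdh1, Epcam and Dsp on neither. Krt5, a keratin of basal epithelium, read 5.51 in the control, not well above background, and 165.2 after CHIR99021, at least 7.24-fold higher, from a spot in row 379 of the later rows. Krt18 was measured in the control alone, at 25.7 beside 20.4. Their summed scaled signal was 10.9 in the control and 11.5 after treatment. Of 10 mesenchymal markers 9 were well above background on both arrays (summed 1225 and 1162). Each sum compares the arrays for 1 list, and sums of different probes say nothing of the order of the lists. Of 5 blood cell markers 4 were (summed 18.1 and 16.8), and of 4 endothelial markers 1 was in the control and 0 after treatment. Since defining epithelial markers were not measured, the cells are called mDE6 here, and a part of cell makeup in the members' values was not tested. In RNA from a whole culture, fewer cells of a type and less RNA per cell cannot be told apart.

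**Figure D4:**
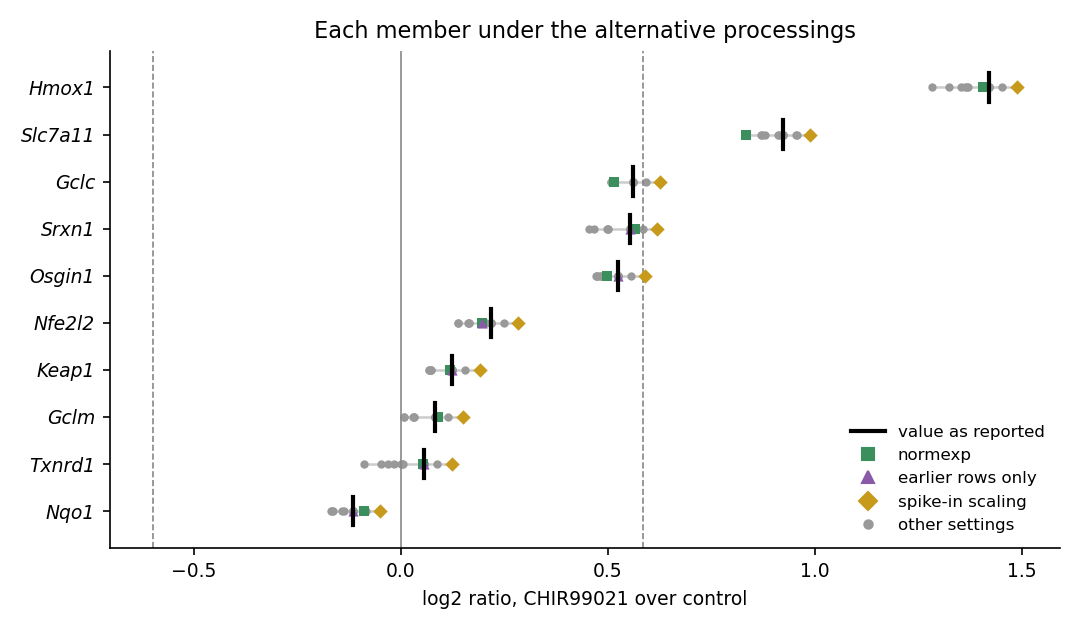
Log2 ratio of each member as reported (black bar) and under the alternative processings (symbols), with dashed lines at ratios of 1.5 and 0.66. Hmox1 and Slc7a11 stay right of the upper line, Gclc, Srxn1 and Osgin1 lie around it, and Txnrd1 lies on both sides of 0. Hmox1 is not drawn for the earlier rows, where its probe gives a bound alone.

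Another 8 scalings or background corrections were tried. Over these Hmox1 ran from 2.50- to 2.80-fold and Slc7a11 from 1.78- to 1.98-fold, and both were called in each. Gclc ran from 1.42 to 1.54, Srxn1 from 1.37 to 1.53 and Osgin1 from 1.39 to 1.51. Gclc passed a ratio of 1.5 under scaling to the array median and to the spike-in probes (control RNA added in labeling), and Srxn1 and Osgin1 under the spike-in scaling alone. None of the 3 was called in any of the 8. Nfe2l2 (1.1 to 1.22), Keap1 (1.05 to 1.14) and Gclm (1.005 to 1.11) stayed above 1 in all 8.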

How the data were processed

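Total RNA of 1 control and 1 CHIR99021 culture was measured on single-color Agilent arrays. Intensity was deposited by the authors as the scanner software's background-subtracted signal per spot, not normalized. The file headers name Feature Extraction 10.7.1.1, and the submitters' processing notes 9.5.1.1. A linear intensity table that the authors normalized by a method not given in the sources used here served as an alternative. Probe coordinates are mm9, as deposited. Each intensity was divided by its array's 75th percentile and taken to log2. Of 56605 probes, the 28066 well above background on either array were tested. A gene took its probe with the highest mean signal, and calls followed the ratio and Z-score given above. A probe measured on 1 array gives a bound ("at least"). Per array, 49.8% and 48.3% of 59305 spots were well above background and 0 were saturated. The number of arrays limits precision. Named are all members, the list genes called, the highest and lowest of each group, Lef1 and Axin2, and others are marked as such. Members and lists were chosen with earlier results of these data known. The scripts were tested on simulated data. Python 3.11.15, pandas 2.3.3, R 4.3.3 and limma 3.58.1 (normexp, quantile and cyclic loess alternatives) were used.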

Additional observations from a re-analysis of the deposited data

How the results depend on the processing

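No paired analysis was possible because there was a single array for the control and for CHIR99021. Hmox1 and Slc7a11 were the members called under each alternative, except that with the earlier rows alone 0 were called, where 7 members could be tested and Slc7a11 had no tested probe and Hmox1 had its dim probe, a bound of at least 1.97-fold. The members' median log2 ratio of 0.37 became 0.4015 with median scaling, 0.3017 with quantile normalization, 0.3177 with cyclic loess, 0.3171 without scaling, 0.4363 with spike-in scaling, 0.3187 with the percentile over probes measured on both arrays, 0.2949 with the authors' table and 0.1949 in the earlier rows. In the same order the median of the wider list, 0.01, became 0.0454, -0.0410, -0.0425, -0.0390, 0.0802, -0.0373, -0.0482 and -0.0700, so it has no direction. Its lower genes, 2, became 1 with the mean over probes, with the probe farthest from 0 and in the earlier rows. Nqo2 was lost in each. They became 3 with normexp (Abcc3 added) and 3 with the authors' table (Txnip added). The count was 5 on the ratio alone and 4 with a Z-score from the median and MAD. Its higher genes, 2, became 0 in the earlier rows, 3 with the probe farthest from 0 (Mafg added) and 3 on the ratio alone (Palb2 added). Scaling by 1 factor per array moves the log2 ratio of every gene alike. The median of all gene names, 0.02, became 0.0558 with median scaling, -0.0285 without scaling and 0.0907 with spike-in scaling. The members' 0.1949 in the earlier rows is a median over the 7 members tested there. The cause of the other shifts was not tested. The sign changed for Txnrd1 alone among the members, above 1 in 10 of 15 settings. With no filter on dim probes the median of all gene names moved from 0.02 to 0.181. Of the values of single members, 74 moved by more than the spread between spots and 73 did not. The lowest measured signals were 23.7 in the control and 26.3 after CHIR99021. A probe measured on 1 array alone gives at most a bound, and a dim probe measured on both still gives a ratio.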
